A study of Mus musculus with 8 samples.

Results

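Transcripts of 40 mitosis and cytokinesis genes were followed in mouse muscle stem cells labelled wild-type and Cox10-/-. The genes were chosen by symbol from a list of cell division genes, and all 40 were found among the 17847 genes of the table. They were ordered by role into 8 genes of mitotic entry, 4 of the chromosomal passenger complex, 5 of the spindle checkpoint and its targets, 4 of the outer kinetochore, 8 of the spindle, 7 of the central spindle and cytokinesis, and 4 of chromosome structure and surface.

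RNA was sequenced from 8 libraries of adult C57Bl/6 mice, 4 labelled wild-type and 4 labelled Cox10-/-, numbered as replicates 1 to 4 in each genotype. In the Cox10-/- animals a floxed Cox10 allele was recombined by a Cre that tamoxifen activates and that the Pax7 gene drives, so deletion was directed to Pax7-expressing cells. The labels give tamoxifen as a single intraperitoneal injection of 200 mg/kg with collection of cells 2 days later, and they do not say which alleles the wild-type animals carried. The sort kept live cells with CD34 and without Sca1, CD45 or CD31, with DAPI as the stain for dead cells. No label says that each library came from its own animal, so the p-values measure the spread between these libraries, which may in part be technical.

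Cells enter mitosis when Cdk1, bound to cyclins A and B, becomes active. Kinetochores then attach the chromosomes to spindle microtubules, and the spindle checkpoint holds the anaphase-promoting complex in check until attachment is complete, after which the central spindle and a contractile ring divide the cell. Transcripts of these proteins accumulate in G2 and mitosis, largely under FOXM1 and the MuvB complex with B-MYB, and are scarce in quiescent cells such as resting muscle stem cells. Cox10 encodes an enzyme of haem A synthesis, which respiratory complex IV requires.

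A shared element of many such promoters is the cell cycle genes homology region (CHR), often found with CCAAT boxes, the sites of the factor NF-Y. The letters TTTGAA and TTCGAA, of which the second reads the same on either strand, were searched for the CHR and CCAAT for the box, on both strands, in windows of 300 bases (250 before and 50 after the gene start) from RefSeq on build GRCm38.p6. A window was at hand for 33 of the 40 genes. The values were made on build mm9, so the windows were joined to them by gene symbol alone. A stretch of 150 bases, from 120 before the start, is shown for 7 genes: Ndc80 and Ckap2, the only ones whose genotypes did not overlap, Cdc20, Aspm and Hmmr, which also rose, and Ccnb2 and Bub1b, which did not pass the test. Capitals mark the motif letters as they lie on the strand shown, so CCAAT on the other strand reads ATTGG. On the plus strand, Aspm lies at chr1:139454653-139454802 and Bub1b at chr2:118598091-118598240. On the minus strand lie Ndc80 at chr17:71526828-71526977, Ckap2 at chr8:22185790-22185939, Cdc20 at chr4:118437314-118437463, Hmmr at chr11:40733408-40733557 and Ccnb2 at chr9:70421525-70421674.
Ndc80: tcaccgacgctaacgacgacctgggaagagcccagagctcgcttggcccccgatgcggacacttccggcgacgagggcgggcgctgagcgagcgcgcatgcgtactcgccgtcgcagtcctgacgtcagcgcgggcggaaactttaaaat
Ckap2: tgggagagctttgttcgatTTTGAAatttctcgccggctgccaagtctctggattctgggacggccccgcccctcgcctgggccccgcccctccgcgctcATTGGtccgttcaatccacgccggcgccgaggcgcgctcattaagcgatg
Cdc20: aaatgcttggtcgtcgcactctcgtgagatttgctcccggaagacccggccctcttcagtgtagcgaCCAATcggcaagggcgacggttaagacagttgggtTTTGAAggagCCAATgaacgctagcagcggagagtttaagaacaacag
Aspm: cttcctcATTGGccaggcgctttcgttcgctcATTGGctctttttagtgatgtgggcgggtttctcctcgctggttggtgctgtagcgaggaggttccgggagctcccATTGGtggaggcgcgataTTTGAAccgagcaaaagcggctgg
Hmmr: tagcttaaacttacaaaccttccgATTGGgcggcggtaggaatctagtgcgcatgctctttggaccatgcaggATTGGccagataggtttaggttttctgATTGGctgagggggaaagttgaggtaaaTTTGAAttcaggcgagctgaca
Ccnb2: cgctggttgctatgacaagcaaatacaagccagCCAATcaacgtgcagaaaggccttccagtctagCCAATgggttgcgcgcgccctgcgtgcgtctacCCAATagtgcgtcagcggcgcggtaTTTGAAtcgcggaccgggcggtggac
Bub1b: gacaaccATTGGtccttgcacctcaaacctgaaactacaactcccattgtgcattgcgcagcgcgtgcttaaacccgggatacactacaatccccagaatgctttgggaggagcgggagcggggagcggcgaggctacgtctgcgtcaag

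Among the 33 windows, 28 (84.8%) held a CHR match, against 13.5% of the 11066 windows of genes in the table. A CCAAT match stood in 25 (75.8%, against 38.1%), and 17 held 2 or more. Both motifs stood in 23 (69.7%, against 5.66%). Birc5, Nuf2 and Nusap1 held neither. Ccnb2, which encodes cyclin B2, carried 3 CCAAT boxes ahead of a CHR in the stretch shown, as did Aspm and Hmmr. Ndc80 carried no CCAAT, and its CHR match begins at the last base of the shown stretch and runs past it, so it is not in capitals. The CHR matches of Bub1b lie on either side of the stretch shown. Of the 23 genes with both motifs 7 rose in Cox10-/- cells, with a median log2 difference of 1.09, and of the 10 without both 7 rose, with a median of 1.20. Among 603 other genes with both motifs 58 rose (9.62%) and 57 fell (9.45%), with a median of -0.005. Of 5964 other genes with neither motif 8.75% rose and 9.84% fell, with a median of -0.06. The share that rose was 8.21% with the CHR alone and 8.24% with CCAAT alone. A match describes letters and was not tested as a binding site.

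Libraries held 1693349 to 4650051 reads counted in genes, with the fewest in Cox10-/- replicate 4 and 2148645 in wild-type replicate 2. In both genotypes replicates 1 and 2 resembled each other, as did replicates 3 and 4: chi-square per degree of freedom over genes was 2.74 to 3.43 within these pairs and 5.52 to 8.85 between them. What the pairs share is not in the labels, so results are given for the pairs apart as well. Cox10 itself had 56, 23, 81 and 52 reads in the wild-type libraries and 49, 56, 35 and 7 in the Cox10-/- ones, a log2 difference of -0.62 ± 0.34 (SE, n = 4 per genotype; limma with Benjamini-Hochberg adjustment, adjusted p = 0.246) over the whole gene, with the deleted exons not resolved. Taken apart, replicates 1 and 2 differed by -0.10 and replicates 3 and 4 by -1.14 (adjusted p = 0.903 and 0.0699), and passed in neither pair. Pax7 stood at 8.45 to 8.77 log2 CPM (its read count relative to the library total, on a log2 scale) in wild-type and 7.15 to 7.52 in Cox10-/-. Its log2 difference was -1.29 (limma, adjusted p = 1.9e-05). Markers of cells outside the sort were present too: Pecam1 of endothelium at 2.70 to 4.32 and 3.76 to 4.86, and Pdgfra of fibro-adipogenic cells at 7.96 to 8.73 and 8.97 to 9.64. Both rose by the same test, Pecam1 by 1.39 (adjusted p = 0.0240) and Pdgfra by 0.84 (adjusted p = 0.00945). The Pdgfra range lay above that of Pax7 in Cox10-/- libraries, and the ranges overlapped in wild-type. Ptprc was not analysed here.

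Every mitosis and cytokinesis gene had a higher mean in Cox10-/- than in wild-type cells. By limma, a linear model that shares the estimate of spread across genes, 19 of the 40 rose (adjusted p under 0.05), against 7.58% of the 17801 genes tested, and none fell, against 8.51%. The median log2 difference was 1.09, a 2.13-fold higher level, beside -0.05 over all genes tested. The smallest difference was 0.55, for Prc1, and the largest 2.19, for Ndc80. Of the 21 that did not pass, 11 had an adjusted p under 0.1, a count with no share over all genes given. In RNA from a population of cells, more cells of a type and more RNA per cell cannot be told apart. All 40 passed the filter on low values, and none had a library at 0: reads ran from 3, for Plk1 in wild-type replicate 2, to 1805, for Mki67.

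**Figure D1:**
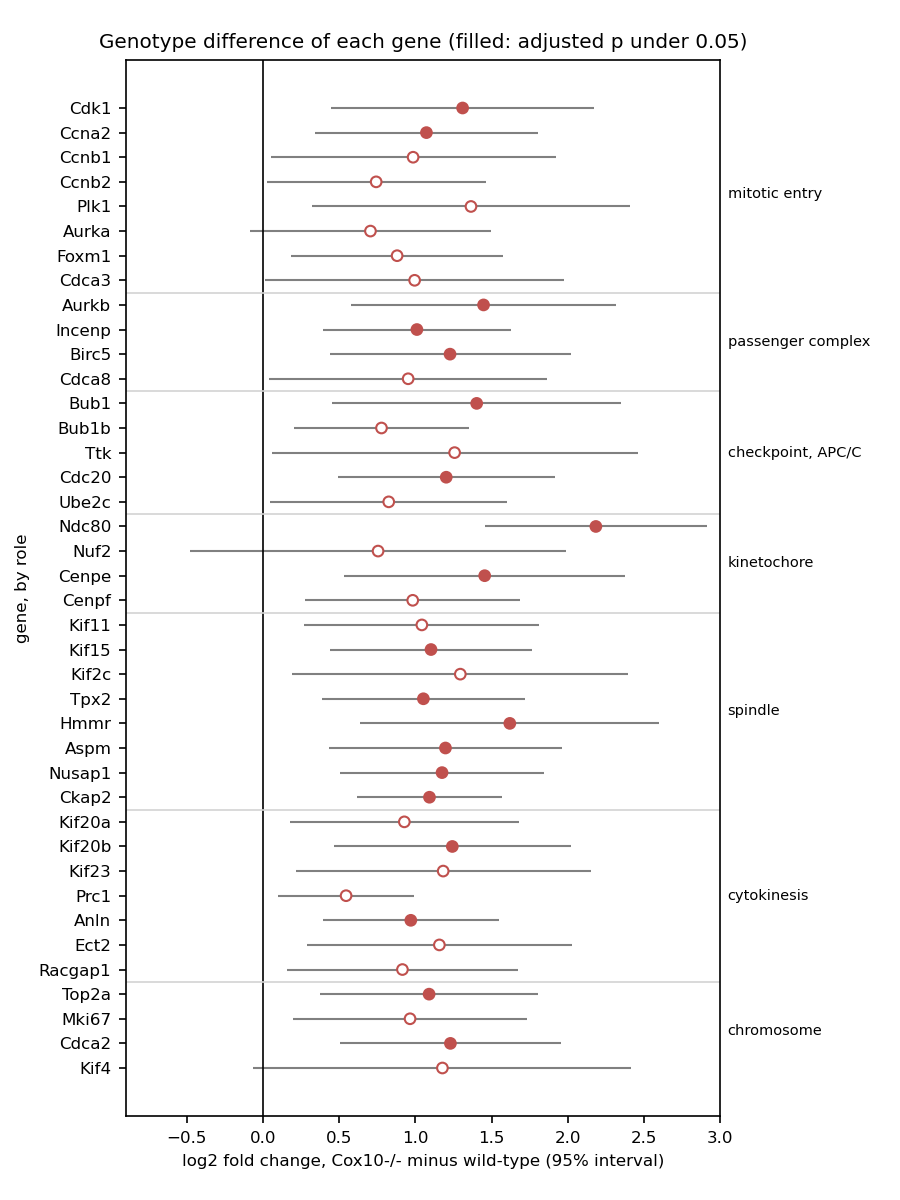
Log2 difference (Cox10-/- minus wild-type, horizontal axis) of each of the 40 genes, grouped by role, with 95% intervals from limma over 4 libraries per genotype. All 40 points lie above 0, from 0.55 for Prc1 to 2.19 for Ndc80, and the 19 filled points passed an adjusted p of 0.05.

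Spread between libraries was large beside the difference, and it was shared by the whole group of genes. The median of the 40 genes was 3.63, 2.85, 4.45 and 3.72 log2 CPM in the wild-type libraries, in the order of their numbers, and 4.96, 3.97, 5.32 and 5.18 in the Cox10-/- ones. Means were 3.66 ± 0.65 and 4.86 ± 0.61 (SD, n = 4 each). Wild-type replicate 3 thus lay above Cox10-/- replicate 2, in 36 of the 40 genes, and the genotypes overlapped. All 4 Cox10-/- libraries lay above all 4 wild-type libraries in only 2 of the 40 genes, Ndc80 and Ckap2, against 9.3% of all genes tested.

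The order of the libraries hardly varied from gene to gene. Wild-type replicate 2 was the lowest of the 8 libraries in 39 genes, the exception being Ccnb1, lowest in wild-type replicate 4. Wild-type replicate 3 was the highest wild-type library in all 40. Among the Cox10-/- libraries, replicate 2 was lowest in 38 genes, and replicate 3 was the highest of all in 30 and replicate 4 in 9. Genes that follow each other through the libraries in this way are not independent measurements of the genotype difference.

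**Figure D2:**
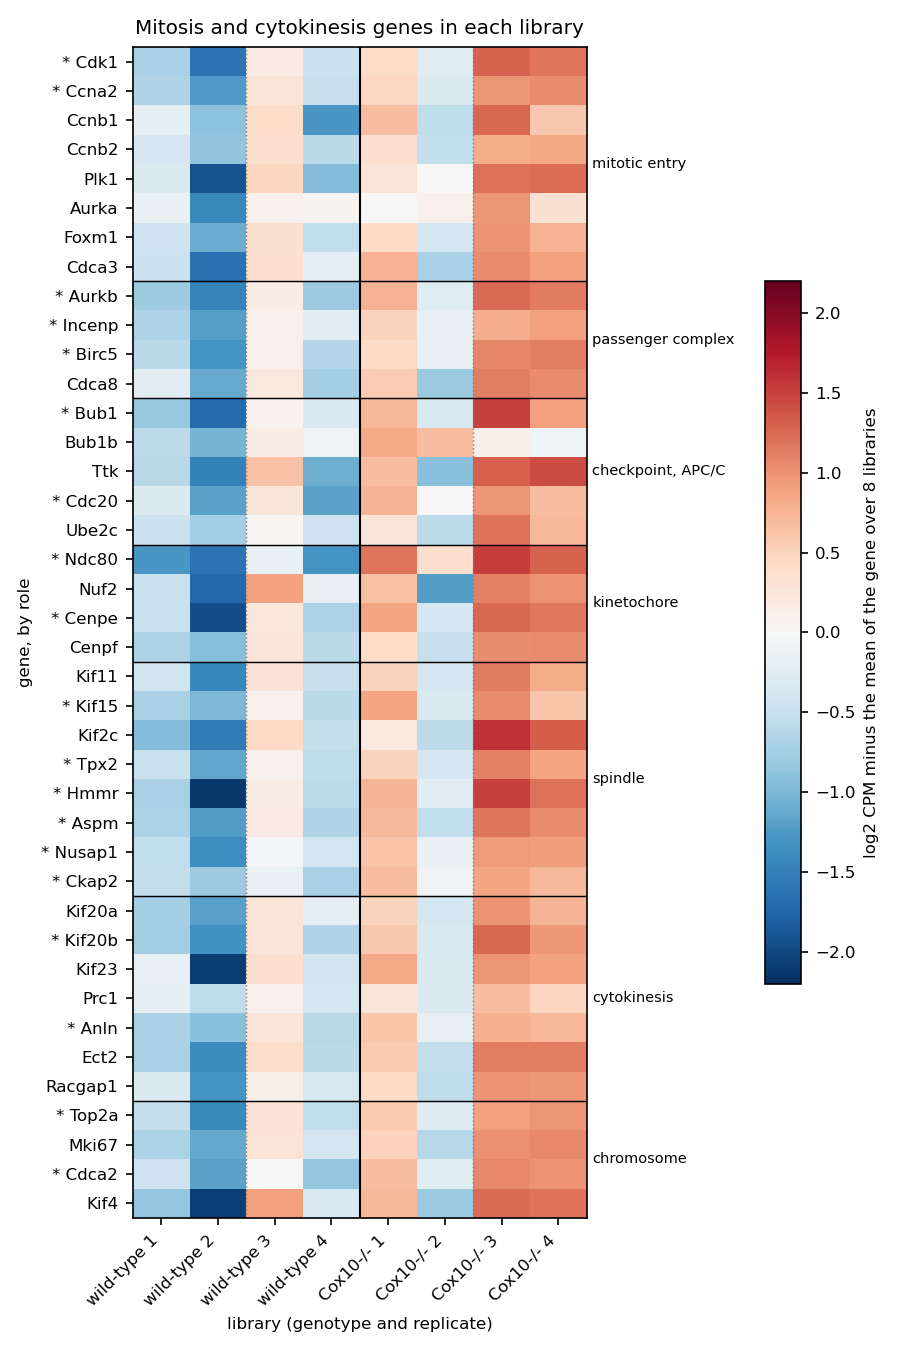
Log2 CPM of the 40 genes (rows, by role; an asterisk marks the 19 that rose) in the 8 libraries (columns), as the difference from each gene's mean over the libraries; dotted lines part replicates 1 and 2 from 3 and 4. Columns move as blocks: wild-type replicate 2 is the lowest library in 39 genes, and Cox10-/- replicate 3 or 4 the highest in 39.

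Leaving out 1 library moved the calls widely. The number of the 40 genes that rose was 3, 3, 29 and 5 without wild-type replicates 1 to 4 in turn, beside 5.34%, 6.64%, 6.84% and 6.45% of all genes tested in the same fits. It was 3, 35, 2 and 3 without Cox10-/- replicates 1 to 4 in turn, beside 6.11%, 5.89%, 4.90% and 8.08% of all genes. In 5 of the 8 fits, all but those without wild-type replicate 3, wild-type replicate 4 or Cox10-/- replicate 2, the share of the 40 genes called was thus near that of all genes. Ndc80 and Ckap2 passed in all 8 of these fits, and the other 17 genes that rose lost the call in at least 1. All 40 stayed above 0 in each of the fits, with a median between 0.84 and 1.39. When replicates 1 and 2 were averaged, and likewise 3 and 4, to give 2 values per genotype, 5 rose, beside 2.50% of all genes: Cdc20, Ndc80, Cenpe, Aspm and Ckap2. Without the 2 shallowest libraries, wild-type replicate 2 and Cox10-/- replicate 4, a setting added after the data were seen, 2 rose, beside 7.83% of all genes, and the median was 0.71.

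Other measures differed between the libraries as well. Counts of markers called stand beside 7.58% of all genes tested that rose and 8.51% that fell. Summed over 11 muscle fibre markers, levels were 95.1 to 256 CPM in wild-type and 140 to 394 CPM in Cox10-/- libraries, lowest in wild-type replicate 2 and highest in Cox10-/- replicate 4. Of these 11 markers 2 rose and none fell, and the median log2 difference was 1.12, with 9 above 0. The 10 fibroblast and fibro-adipogenic markers summed to 4018 to 5382 and 4168 to 8502 CPM, with Cox10-/- replicates 3 (6063) and 4 (8502) highest, and 2 of them rose and 1 fell. Endothelial markers summed to 365 to 395 and 422 to 511 CPM, and 4 of 14 rose. Of the muscle stem cell markers 5 of 11 fell, and their sum was 2565 to 3277 against 1829 to 1988 CPM. The 5 haematopoietic markers analysed summed to 25.6 to 37.2 and 27.7 to 47.9 CPM with none called, 9 mural markers to 1380 to 1586 and 1157 to 1479 CPM with 2 up and 3 down, 5 Schwann cell markers to 146 to 375 and 153 to 371 CPM with none called, and 3 erythroid markers to 7.69 to 17.2 and 16.5 to 19.1 CPM with 1 up. The part of other cell types, or of depth, in the mitotic difference was not tested.

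Counts of genes that rose in each role stand beside 7.58% of all genes tested, and the roles were not tested against each other. The 8 genes of mitotic entry had a median log2 difference of 0.99, and 2 of them rose. Cdk1, the kinase that drives entry, stood at 3.38, 2.48, 4.28 and 3.63 log2 CPM in wild-type and at 4.51, 3.83, 5.39 and 5.28 in Cox10-/- cells. The levels overlapped through wild-type replicate 3 and Cox10-/- replicate 2 alone, and the difference was 1.31 ± 0.40 (SE; adjusted p = 0.0414). Ccna2, which encodes cyclin A2, stood at 3.95, 3.36, 4.90 and 4.10 in wild-type and at 5.07, 4.30, 5.58 and 5.65 in Cox10-/- cells. Here too only wild-type replicate 3 reached into the Cox10-/- range, and the difference was 1.07 ± 0.34 (adjusted p = 0.0488). Both calls were lost in 6 of the 8 fits without 1 library, with an adjusted p of up to 0.135 for Ccna2 without Cox10-/- replicate 3. Foxm1, the transcription factor of many G2 and mitosis genes, had a difference of 0.88 ± 0.32 and did not pass (adjusted p = 0.0821). Neither did the kinase Plk1 (1.37), the cyclins Ccnb1 (0.98) and Ccnb2 (0.74), Cdca3 (1.00) and the kinase Aurka (0.70), with adjusted p from 0.073 to 0.211. Where strand was not counted, reads of a gene cannot be told apart from those of a gene overlapping it on the opposite strand, as Exosc9 overlaps Ccna2, Elovl1 overlaps Cdc20, 9930104L06Rik overlaps Cdca8, Oip5 overlaps Nusap1, Cdc23 overlaps Kif20a, Rccd1 and 6330403N20Rik overlap Prc1, and Pdzd11 overlaps Kif4.

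The chromosomal passenger complex corrects wrong attachments and later acts in cytokinesis. Of its 4 subunits 3 rose, and the median was 1.12. Aurkb, its kinase, stood at 2.17, 1.48, 3.11 and 2.16 log2 CPM in wild-type and at 3.72, 2.69, 4.20 and 4.10 in Cox10-/- cells (difference 1.45 ± 0.40, adjusted p = 0.0279). Incenp, the scaffold, stood at 4.60, 4.07, 5.39 and 5.04 and at 5.77, 5.10, 6.08 and 6.19 (1.01 ± 0.28, adjusted p = 0.0305). In both, Cox10-/- replicate 2 fell within the wild-type range and the other 3 Cox10-/- libraries lay above it. Birc5, which encodes survivin, rose by 1.23 ± 0.36 (adjusted p = 0.0381). Cdca8, which encodes borealin, had 0.95 ± 0.42 and did not pass (adjusted p = 0.145). The 3 calls were lost in 5 or 6 of the fits without 1 library, with an adjusted p of up to 0.116 for Birc5.

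Among the checkpoint genes and the partners of the anaphase-promoting complex, 2 of 5 rose and the median was 1.20. Cdc20, the activator of that complex and the target of the checkpoint, stood at 3.67, 2.80, 4.24 and 2.80 log2 CPM in wild-type and at 4.72, 3.99, 4.95 and 4.66 in Cox10-/- cells, a difference of 1.20 ± 0.33 (adjusted p = 0.0268). Cox10-/- replicate 2 lay below wild-type replicate 3, and no other pair crossed. Bub1, a checkpoint kinase, stood at 2.08, 1.22, 2.99 and 2.58 in wild-type and at 3.65, 2.58, 4.43 and 3.82 in Cox10-/- cells, a difference of 1.40 ± 0.44 (adjusted p = 0.0466). Its lowest Cox10-/- library, replicate 2, equalled wild-type replicate 4 and lay below wild-type replicate 3. The call of Cdc20 was lost in 5 fits without 1 library and that of Bub1 in 6, with an adjusted p of up to 0.139 for Bub1. The kinase Ttk (1.26) and the ubiquitin-conjugating enzyme Ube2c (0.83) did not pass. Bub1b, a checkpoint protein that holds Cdc20, had 0.78 ± 0.26 (adjusted p = 0.0635).

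At the outer kinetochore 2 of 4 genes rose, and the median was 1.22. Ndc80, which names the complex that grips the microtubule end, had the largest difference of the 40. It stood at 2.42, 2.07, 3.54 and 2.38 log2 CPM in wild-type and at 4.87, 4.07, 5.22 and 4.99 in Cox10-/- cells. Every Cox10-/- library lay above every wild-type one, and the difference was 2.19 ± 0.33 (limma, adjusted p = 0.00105), 4.55-fold. Nuf2, the partner of Ndc80 in the same complex, is described because of that contrast, after its values were seen. It stood at 2.93, 1.70, 4.31 and 3.24 in wild-type and at 4.06, 2.20, 4.53 and 4.41 in Cox10-/- cells. Its libraries interleaved, and the difference was 0.76 ± 0.57 (95% interval -0.48 to 1.99, adjusted p = 0.399).

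The median of the other 39 genes was subtracted library by library, to set each gene against the movement they shared. Relative to that median Ndc80 lay at -1.21, -0.83, -0.97 and -1.39 in the 4 wild-type libraries and at -0.17, 0.13, -0.17 and -0.20 in the 4 Cox10-/- libraries. The shift was 1.00, with no overlap between genotypes. The next largest shift upward was 0.45, for Hmmr, and Nuf2 shifted by -0.45. The lowest was Prc1, at -0.64. This measure was chosen after the values were seen and has no test. Of the remaining kinetochore genes, the kinesin Cenpe stood at 5.49, 4.03, 6.22 and 5.29 in wild-type and at 6.85, 5.60, 7.25 and 7.15 in Cox10-/- cells, a difference of 1.46 ± 0.42 (adjusted p = 0.0357). Only wild-type replicate 3 reached into its Cox10-/- range, and its call was lost in 6 fits without 1 library (adjusted p up to 0.104). Cenpf, a large kinetochore protein, had 0.98 ± 0.32 and did not pass (adjusted p = 0.0586).

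**Figure D3:**
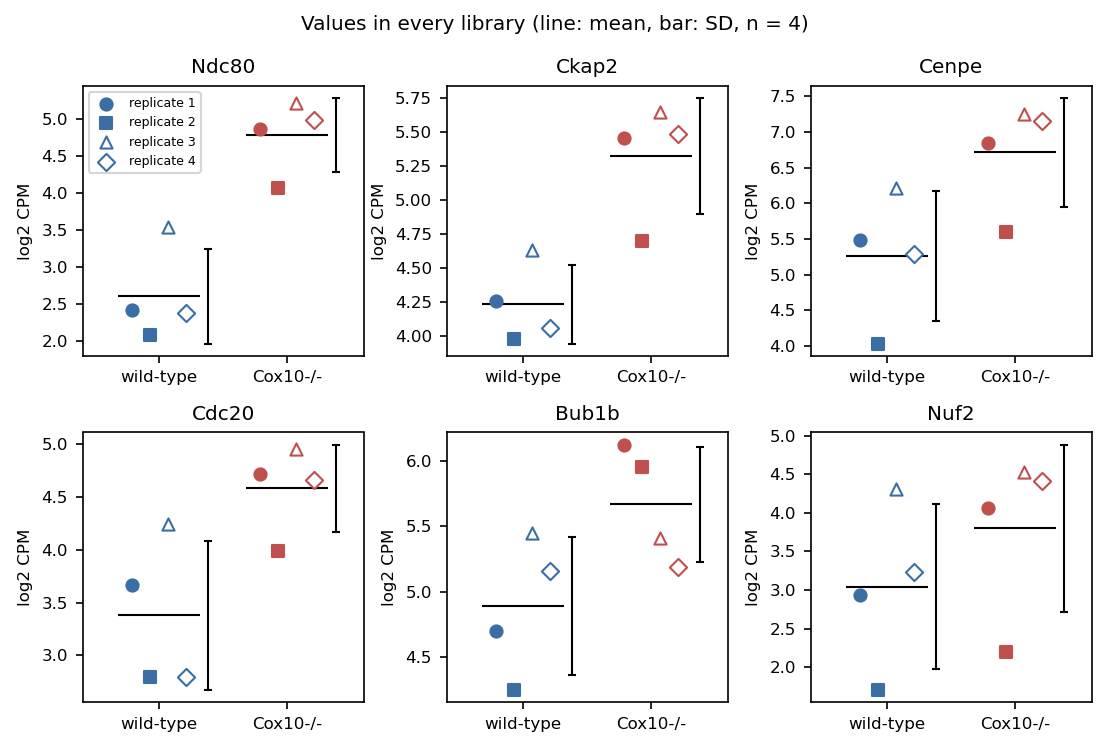
Log2 CPM of Ndc80, Ckap2, Cenpe, Cdc20, Bub1b and Nuf2 in each library (filled: replicates 1 and 2; open: replicates 3 and 4), with the mean and SD of 4 libraries per genotype. Ndc80 and Ckap2 show no overlap between genotypes, Nuf2 interleaves, and Bub1b parts the genotypes in replicates 1 and 2 only.

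Of the spindle motors and microtubule-associated proteins 6 of 8 rose, with a median of 1.14. Ckap2, a microtubule-associated protein of the spindle, stood at 4.26, 3.98, 4.63 and 4.06 log2 CPM in wild-type and at 5.46, 4.70, 5.65 and 5.49 in Cox10-/- cells. The groups came closest, without crossing, between wild-type replicate 3 and Cox10-/- replicate 2, and the difference was 1.09 ± 0.22 (adjusted p = 0.00555). Nusap1, which bundles spindle microtubules, stood at 3.53, 2.70, 4.03 and 3.66 and at 4.70, 3.92, 5.01 and 4.99, a difference of 1.18 ± 0.31 (adjusted p = 0.0222). Its call was lost in 3 fits without 1 library. Hmmr, which binds microtubules near the spindle poles, rose by 1.62 ± 0.45, Aspm, a protein of the poles, by 1.20 ± 0.35, the kinesin Kif15 by 1.10 ± 0.30 and Tpx2, the activator of Aurora A, by 1.05 ± 0.31. The adjusted p of these ran from 0.0282 to 0.0372, and their calls were lost in 5 or 6 fits. Kif11, the motor that separates the poles, had 1.04 ± 0.35 (adjusted p = 0.0654), and the depolymerising kinesin Kif2c 1.29 ± 0.51 (adjusted p = 0.103).

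Of the 7 genes of the central spindle and cytokinesis 2 rose, and the median was 0.97. Anln encodes anillin, a scaffold of the contractile ring. It stood at 4.74, 4.54, 5.75 and 4.85 log2 CPM in wild-type and at 6.07, 5.27, 6.23 and 6.19 in Cox10-/- cells, a difference of 0.97 ± 0.27 (adjusted p = 0.0271). Kif20b, a kinesin of late mitosis, stood at 3.98, 3.42, 5.03 and 4.08 and at 5.35, 4.42, 6.01 and 5.70, a difference of 1.24 ± 0.36 (adjusted p = 0.0338). In both genes wild-type replicate 3 exceeded Cox10-/- replicate 2, and both calls were lost when a library was left out in 6 of the 8 fits (highest adjusted p = 0.106, for Kif20b). Prc1, which bundles the antiparallel microtubules of the midzone, had the smallest difference of the 40, 0.55 ± 0.20 (1.46-fold, adjusted p = 0.0895). Ect2, an exchange factor that acts at the division site, had 1.16, the centralspindlin subunits Kif23 and Racgap1 1.18 and 0.91, and the kinesin Kif20a 0.93, with adjusted p from 0.0682 to 0.0941.

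Among the genes of chromosome structure and surface 2 of 4 rose, and the median was 1.13. Cdca2, which brings protein phosphatase 1 to chromatin, stood at 3.08, 2.36, 3.54 and 2.69 log2 CPM in wild-type and at 4.21, 3.27, 4.59 and 4.52 in Cox10-/- cells, a difference of 1.23 ± 0.33 (adjusted p = 0.0257). Top2a, the topoisomerase that untangles sister chromatids, stood at 6.21, 5.32, 7.06 and 6.20 and at 7.32, 6.46, 7.65 and 7.72, a difference of 1.09 ± 0.33 (adjusted p = 0.0417). Wild-type replicate 3 again lay above Cox10-/- replicate 2, and both calls were lost when a library was left out in 6 of the 8 fits (highest adjusted p = 0.116, for Top2a). Mki67, which coats mitotic chromosomes and is read as a proliferation marker, had 0.97 ± 0.35 and did not pass (adjusted p = 0.0824). The chromokinesin Kif4 had 1.18 ± 0.57 (adjusted p = 0.184).

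Within replicates 1 and 2, and within replicates 3 and 4, the genotypes were set against each other with 2 libraries each. The median difference of the 40 genes was 1.06 in replicates 1 and 2, where all 40 were above 0, and 1.19 in replicates 3 and 4, where 39 were. Over all genes tested the medians were 0.05 and -0.15. Both Cox10-/- libraries lay above both wild-type libraries in 30 of the 40 genes in replicates 1 and 2, against 31.9% of all genes, and in 39 of the 40 in replicates 3 and 4, against 21.3%. The levels of the pairs differed: in 36 genes Cox10-/- replicates 1 and 2 both lay below replicates 3 and 4, and in wild-type the same held in 21. The share of all genes with this order is not given here, so these counts are not read as particular to the 40 genes. Summed over the 40 genes, levels were 901, 587, 1613 and 950 CPM in wild-type and 2003, 1047, 2743 and 2605 CPM in Cox10-/- replicates 1 to 4. The summed level of Cox10-/- replicate 2 thus lay below that of wild-type replicate 3 and above the other 3 wild-type libraries.

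A model with genotype, pair and their interaction tested whether the genotype difference itself differed between the pairs. It passed in none of the 40 genes (limma, adjusted p under 0.05), against 0.0674% of all genes tested. At an unadjusted p under 0.05 it passed in 1, a count with no share over all genes given. That gene was Bub1b, described here after its values were seen. It stood at 4.70, 4.25, 5.45 and 5.16 log2 CPM in wild-type and at 6.12, 5.95, 5.41 and 5.19 in Cox10-/- cells. In replicates 1 and 2 the Cox10-/- libraries were higher by 1.56, and in replicates 3 and 4 the genotypes were level (-0.005). The difference of differences was -1.57 ± 0.26 (adjusted p = 0.0664), and its adjusted p was 0.0498 after each library was centred on its median gene, 0.0692 without the filter and 0.0964 by limma-voom. Bub1b was also the only gene of the 40 at its highest in Cox10-/- replicate 1.

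**Figure D4:**
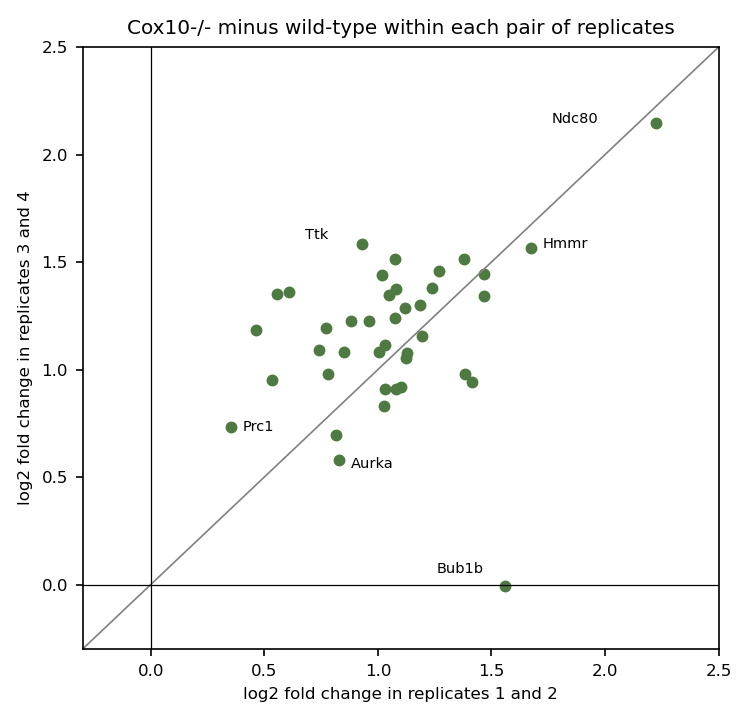
Log2 difference (Cox10-/- minus wild-type) of each of the 40 genes in replicates 1 and 2 (horizontal axis) and in replicates 3 and 4 (vertical axis), 2 libraries per genotype each; the diagonal marks equal differences. The medians are 1.06 and 1.19, and Bub1b lies apart from the rest, at 1.56 and -0.005.

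Genes that work beside these 40 were read from lists of the same machinery. Their counts stand beside 7.58% of all genes tested that rose and 8.51% that fell. Of 33 other spindle and centrosome genes 9 rose and 1 fell, with a median of 0.95: Ckap2l, a relative of Ckap2, rose by 1.50 ± 0.29, the kinesin Kif14 by 1.72 ± 0.43, and the centriole gene Cenpj fell by 0.81. Of 35 other kinetochore and centromere genes 5 rose and none fell, with a median of 0.47, among them Sgol2a (1.42), a protector of centromeric cohesion, and Ska3 (1.12), which couples kinetochores to microtubules. Of 21 condensin, cohesin and separase genes 5 rose and 1 fell, with a median of 0.20: the cohesin factors Esco2 and Cdca5 rose by 2.21 ± 0.49 and 2.13 ± 0.51, and the condensin subunit Smc4 by 0.45. Kif14 and Smc4 lost their calls in 2 of the 8 fits without 1 library.

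Other lists held falls as well as rises, or falls alone. Among all genes tested 7.58% rose and 8.51% fell. Of 17 subunits and inhibitors of the anaphase-promoting complex none rose and 2 fell, Cdc16 by 0.62 and Anapc1 by 0.46, and the median was -0.09. Of 6 other checkpoint genes 1 fell, Mad1l1 by 0.68, and the median was 0.04. Of 20 other cytokinesis and abscission genes 2 rose and 3 fell: Arhgap11a rose by 1.41 ± 0.28, the actin-binding protein Iqgap3 by 2.15 ± 0.47, and the ubiquitin ligase adaptor Klhl13 fell by 0.54. Of 16 other regulators of entry and exit 4 rose and 2 fell, with a median of 0.39. Among these the phosphatases Cdc14a and Cdc14b rose by 1.00 ± 0.11 and 1.17 ± 0.16, and Wee1, the kinase that restrains Cdk1, fell by 0.77.

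Upstream of the mitotic genes, 4 of 23 genes of the E2F, MuvB, pocket protein and NF-Y group rose and 4 fell, with a median of 0.04. Rbl2, the pocket protein of the quiescent-cell repressor complex, rose by 0.88 ± 0.12, the repressor E2f7 by 1.18 ± 0.20 and the MuvB subunit Lin52 by 0.87 ± 0.20. Of 46 replication and G1/S genes 4 rose and 3 fell, beside 7.58% and 8.51% of all genes tested. Their median was 0.09, or 0.325 in replicates 1 and 2 and -0.20 in replicates 3 and 4. The 3 with the smallest p were Pola1, Mcm2 and Tyms, at -0.86, -1.53 and -1.25. In the group of D cyclins, their kinases and CDK inhibitors 2 of 12 rose and 4 fell. Ccnd1, which encodes cyclin D1, fell by 1.77 ± 0.15 and its kinase Cdk4 fell by 0.53 ± 0.11, and the CDK inhibitor Cdkn1a rose by 0.72 ± 0.10.

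**Figure D5:**
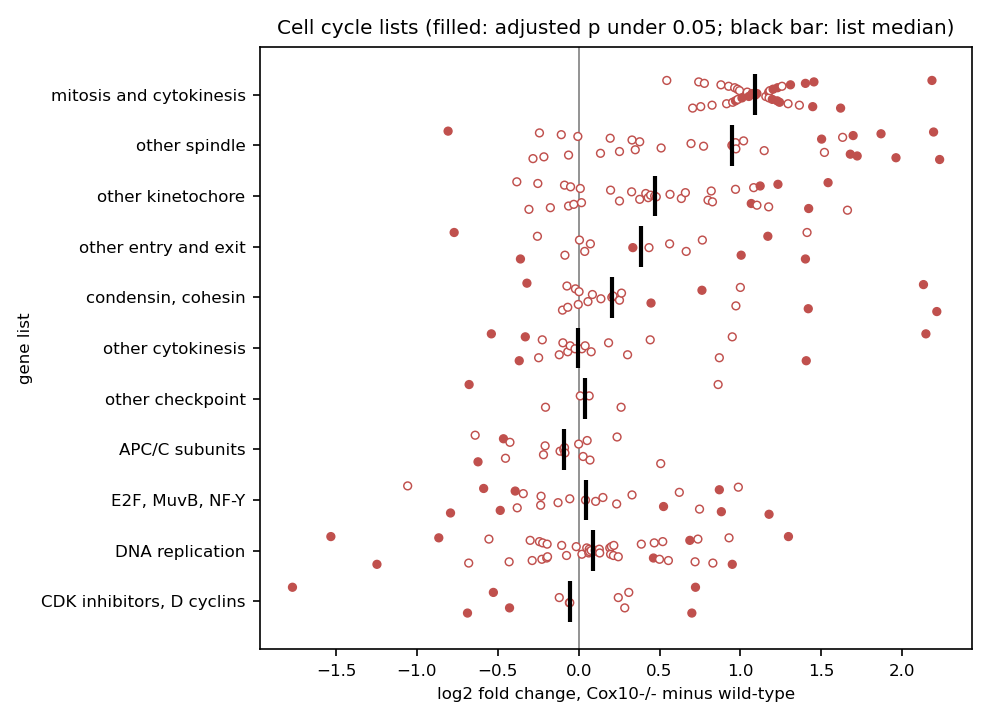
Log2 difference (Cox10-/- minus wild-type, horizontal axis) of every gene tested in the 40 mitosis and cytokinesis genes and in 10 related cell cycle lists (rows); filled points passed an adjusted p of 0.05 and the black bar is the median. The 40 genes have a median of 1.09, other spindle genes 0.95, and subunits of the anaphase-promoting complex -0.09.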

How the data were processed

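The authors deposited log2 CPM per gene, a gene's reads scaled to the library's, as tested on the file, with a CPM of 1 or less set to 0. Per the submitters' processing notes, the tools were HISAT2, featureCounts, Trim Galore and DESeq2 and the build mm9, with versions and strand setting not given in the sources used here. Of the rows, 1054 hold no gene and were left out, and 23 symbols had become dates. The authors' mean column was not used. Low values (up to 20 reads) were 100% whole multiples of 1 read within 0.1, which gave the depths.

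The genotype test was limma 3.58.1 (R 4.3.3), on values as deposited, with a variance trend, no added pseudocount, and Benjamini-Hochberg adjustment over the 17801 genes above 0 in at least 4 of 8 libraries (46 removed). An interaction model took replicates 1 and 2 apart from 3 and 4. Errors of differences are standard errors of the fit. The fit was tested on simulated data. Summaries, motif searches and figures used Python 3.11.15, pandas 2.3.3 and matplotlib 3.10.9. Deviations of same-numbered libraries of the genotypes correlated at 0.04 to 0.14 across genes, and those of other numbers at -0.21 to 0.16. The labels do not call the numbers pairs, so the main test did not take them as pairs. Members, lists and tests were chosen with earlier results of these data known. Named were all members past the threshold, the highest-mean members up to 3 per role, and up to 3 called genes per related list with the smallest p. Library values are given for the 2 members per role with the smallest p, and for Bub1b and Nuf2. Other members were named after their values were seen. A few results are not reported here. Alternatives covered filter, pseudocount, centring, variance prior, limma-voom on recovered reads, blocks, pair means and libraries left out.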

Additional observations from a re-analysis of the deposited data

Results flagged for a closer look

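In each genotype the 4 values of each gene were searched for a library far from the other 3, by a gap that takes more of the group's range than Dixon's 95% value for 4 samples. Of 80 groups tested 4 passed, and chance passes about 1 in 20 groups, or 4 of 80. The groups share the same libraries and are not independent, so this share is only a rough guide. Aurka, a spindle pole kinase, stood at 1.48 log2 CPM in wild-type replicate 2 and at 2.76 to 2.99 in the other wild-type libraries. The remaining 3 were in Cox10-/- replicate 2: Kif23, a motor of the central spindle, at 4.24 against 5.39 to 5.54, Anln at 5.27 against 6.07 to 6.23, and Cdca3 at 2.63 against 4.10 to 4.39. Wild-type replicate 2 and Cox10-/- replicate 2 were the libraries with the lowest median of the 40 genes in their genotype, and replicate 2 of the wild-type was also its shallowest.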

How the results depend on the processing

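All 40 genes kept their direction in every alternative run except Bub1b, at -0.005 in replicates 3 and 4 alone. The median difference stayed between 0.71 and 1.39. Calls moved far more, from 19 of 40. They were 2 with no trend in the variance prior (beside 5.69% of all genes higher), 5 by limma-voom (8.28%), 31 with the replicate pairs (1 and 2, 3 and 4) as a term (10.2%), 8 in replicates 1 and 2 alone (8.67%), 30 in replicates 3 and 4 alone (5.74%), 5 with the means of these pairs (2.50%), 27 after median centring (9.91%), and 2 without the 2 shallowest libraries (7.83%, chosen after seeing the data). Without 1 library they ran from 2 to 35. With the replicate number as a block 36 rose (8.84% of all genes). Over all genes, deviations of same-numbered libraries correlated at 0.04 to 0.14 and those of other numbers at -0.21 to 0.16. Among the 40 genes, replicate 2 was the lowest library of its genotype in 39 (wild-type) and 38 (Cox10-/-). Replicate 3 was the highest of its genotype in 40 and 30. The labels do not say whether the numbers mark pairs, so the block is given as an alternative only. Over all genes 2863 changed, 858 with pair means and 1840 to 2907 without 1 library. Of the changed genes 47.1% were higher, 58.4% of 3023 after median centring, 63.9% in replicates 1 and 2 alone and 34.4% in replicates 3 and 4 alone. In the related lists 56 genes changed, against 31 with no variance trend, 24 with pair means, 35 without the 2 shallowest libraries, 72 with the replicate block, 77 with the term for the pairs, and 31 to 64 without 1 library. Interaction calls were 0, and 1 (Bub1b) after median centring. The cause was not tested. Of the 40 genes 12 had under 10 reads in at least 1 library.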
